A study of Mus musculus with 2 samples.

Results

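The heat shock proteins, their co-chaperones, the CCT chaperonin and the heat shock factors were followed in the uterus of mice with normal and repressed VEGF. Members were chosen by gene symbol, with earlier results of these data known. The rule took the HSP70, HSP90α and HSP90β, HSP110, small HSP, HSP60, HSP10, DNAJ, CCT, HSF and BAG names with Stip1. It left out 4 genes of the endoplasmic reticulum (ER), Hspa5, Dnajb9, Dnajb11 and Dnajc3. By this rule 78 of the 14678 genes of the table were members. The set is mainly but not wholly cytosolic, since 13 of its members were placed in the mitochondrion or the ER. Some others are known from the nucleus or have no assigned site. Both groups were littermate double transgenic females, VEGFtetO/tetO/beta-AKtg/wt, of 9 to 10 weeks, mated to VEGFtetO/tetO males and collected at G2.5, that is gestation day 2.5. The β-actin promoter drives the tetR-Krab repressor throughout the body, so that VEGF repression was not limited to 1 uterine cell type. The Dox+ (VEGF-normal) group ate chow with 200 mg/kg doxycycline, which releases the repressor from the VEGF promoter. Doxycycline was withdrawn from the Dox− (VEGF-repression) group after weaning, and the effects of doxycycline and of VEGF repression cannot be told apart by this design.

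RNA of 3 uteri was pooled for each group, and each pool gave 1 library, so that no difference has a replicate check and no P-value is given. Tag profiling counts short sequence tags per gene, and the libraries held 5985925 clean tags in Dox+ and 5844314 in Dox−. Levels are given as tags, or as TPM, here tags per 1000000 clean tags, which carry no correction for transcript length. A ratio is the share of a gene's tags in the Dox− library over its share in the Dox+ library. Its 95% interval is the exact Clopper-Pearson interval of the split of the gene's tags, and all intervals cover counting error only, not variation between animals. Ratios were compared where both libraries together had at least 200 tags, which 6547 genes and 57 of the 78 members did. Vegfa itself had 247 tags in Dox+ and 125 in Dox−, 1.93-fold lower (95% interval 1.55 to 2.41). All 10 listed markers each of uterine epithelium, of stroma and of smooth muscle were present in the table.

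Chaperones bind unfolded or partly folded proteins and keep them from aggregating. HSP70 works in cycles of ATP hydrolysis that J-domain (DNAJ) proteins start and nucleotide exchange factors, such as HSP110 and BAG proteins, end. HSP90 receives clients from HSP70 through the adaptor Stip1 and is known in the uterus as a partner of the progesterone and estrogen receptors. Small HSPs hold unfolded proteins without ATP and are abundant in muscle, the CCT ring folds actin and tubulin, and HSF1 is the transcription factor of the heat shock response.

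The best known control sequence of these genes is shown in 7 members, the 3 with its longest form and 4 others chosen after their values were seen, for their low ratios (Hspb1, Hspb6), a high ratio (Hsph1) or many tags (Dnaja1). Heat shock factors bind heat shock elements, inverted repeats of GAA units. The 2-unit forms GAANNTTC and TTCNNGAA and the 3-unit forms, in which either is followed after 2 free bases by its own first unit, were searched in the 250 bases before each RefSeq gene start of GRCm38.p6. Each 3-unit form is the reverse complement of the other, each 2-unit form reads the same on both strands, and every 3-unit match also holds 2-unit matches. Of the 62 members with a promoter in the RefSeq table, 3 held a 3-unit element (4.84%), compared with 0.514% of all 27025 genes and 0.626% of the genes in the ratio comparison. Those were Dnajb6 and the pair Hspd1 and Hspe1, whose windows hold the same element, so that the share counts it for both. In a window of 300 bases, which runs past the start, Hsph1 joined these 3 members, 4 of 62 (6.45%) beside 0.662% of all genes. The promoters of 16 members were not analysed here, among them those of Hsp90aa1, Hsp90ab1, Hspa8 and Hsf1. A 2-unit element was found in 15 of the 62 (24.2%), and in 14.5% of all genes. Over single windows, 0.466% of 32851 held the 3-unit and 12.8% the 2-unit form. Capitals mark all matched bases, and every sequence is written 5′ to 3′ on the strand of its gene.

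The whole 250 bases before the start of Hspe1, chr1:55087898-55088147 (plus strand), hold 18 matched bases that begin 89 bases before the start:
Hspe1: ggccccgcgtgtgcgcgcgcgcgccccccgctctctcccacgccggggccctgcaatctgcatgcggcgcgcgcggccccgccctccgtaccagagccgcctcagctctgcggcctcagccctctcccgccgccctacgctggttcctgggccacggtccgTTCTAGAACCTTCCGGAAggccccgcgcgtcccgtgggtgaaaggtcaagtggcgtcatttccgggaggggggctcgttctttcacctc
The Hspd1 gene lies head to head with Hspe1, and its window holds the same 18 bases read on the other strand. They are shown with 20 bases on each side, as are the elements of the other genes. The positions are chr1:55088039-55088096 for Hspd1 (minus strand), chr5:29735832-29735884 for Dnajb6 (plus), chr5:135887782-135887849 for Hspb1 (plus), chr7:30553161-30553208 for Hspb6 (plus), chr5:149636342-149636389 for Hsph1 (minus) and chr4:40722324-40722371 for Dnaja1 (plus):
Hspd1: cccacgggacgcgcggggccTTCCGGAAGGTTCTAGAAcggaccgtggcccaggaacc
Dnajb6: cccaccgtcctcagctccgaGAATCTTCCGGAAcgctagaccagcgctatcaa
Hspb1: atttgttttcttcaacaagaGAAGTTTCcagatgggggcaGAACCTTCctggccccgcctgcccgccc
Hspb6: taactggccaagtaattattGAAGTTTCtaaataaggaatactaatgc
Hsph1: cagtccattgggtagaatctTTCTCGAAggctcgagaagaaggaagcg
Dnaja1: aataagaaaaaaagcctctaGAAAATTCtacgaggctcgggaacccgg
Hspb1 has 2 separate 2-unit matches, and Hspb6, Hsph1 and Dnaja1 have 1 each. A match describes these letters alone. Hspb1, Hspb6 and Dnaja1 had fewer tags in Dox−, Hsph1, Hspd1 and Hspe1 had more, and the interval of Dnajb6 held 1. Since 4 of these genes were picked with their values known, the mix of directions was set by the choice.

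As a set, the members held nearly the same share of both libraries. They had 54884 tags in Dox+ and 53420 in Dox−, a ratio of 0.997 (0.985 to 1.01). Their median log2 ratio over the 57 compared members was 0.05, and that of all 6547 compared genes was 0.03. At a fold change of 1.5, 4 of the 57 were higher in Dox− (7.02%) and 8 were lower (14.0%). Among all compared genes 15.2% were higher and 14.7% lower, 29.9% in all, so that the share of lower members was near the background. The lower members were Hspb1, Hspb6, Hspb7, Hspb8, Hspb11, Hspa2, Bag2 and Dnajb5, and the higher ones were Hsph1, Hspa13, Cct6a and Dnajc21. All 5 compared genes with small HSP names were among the lower ones, Hspb11 included, which is named as a small HSP but works in intraflagellar transport. Of the 52 other compared members 45 stayed within 1.5-fold, with 4 higher and 3 lower. At a fold change of 2, 5 members were lower and 0 higher, where 5.62% and 4.61% of all compared genes were. The counting interval of the ratio held 1 for 21 of the 57 members, lay above 1 for 18 and below 1 for 18.

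**Figure D1:**
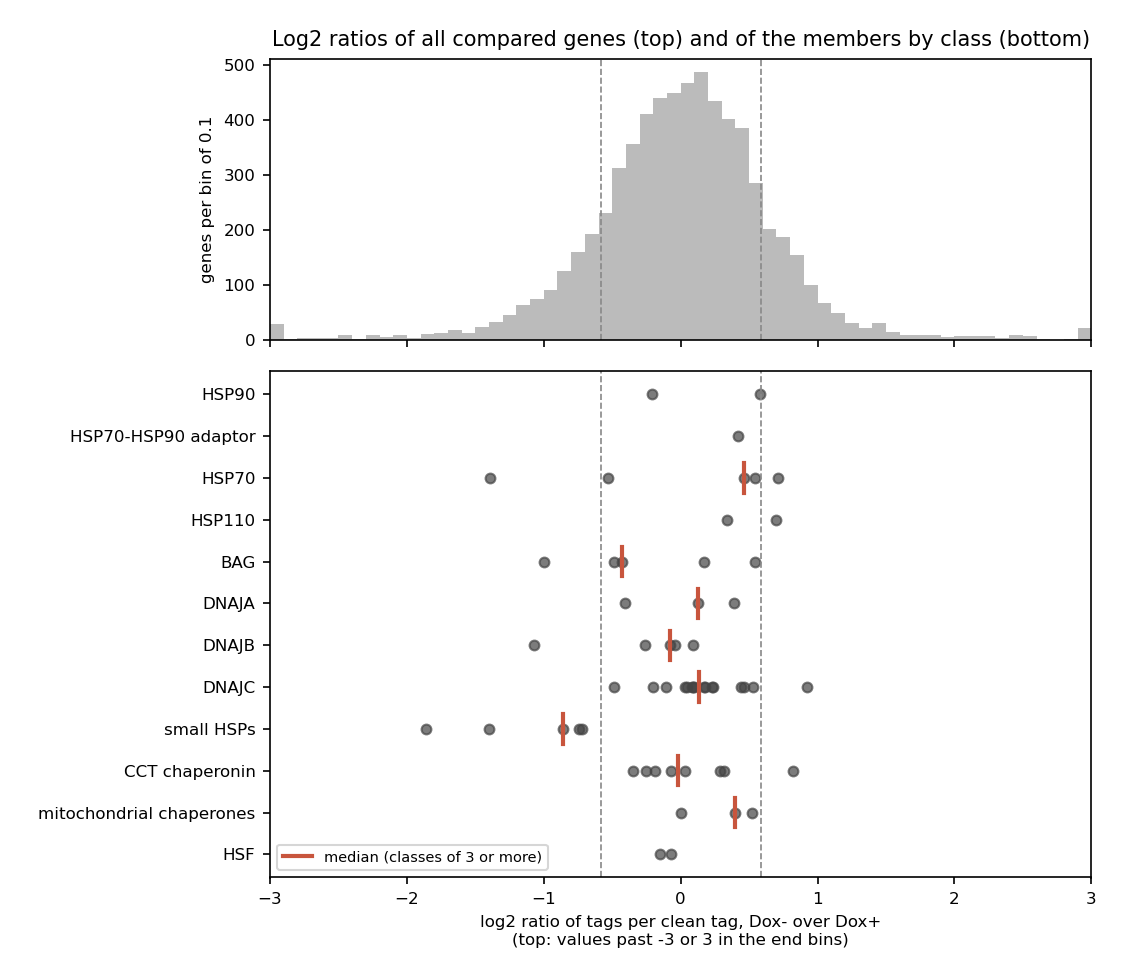
Log2 ratios (Dox− over Dox+) of the 6547 compared genes, as a histogram in bins of 0.1 with values past the axis in the end bins, and of the 57 compared members by class, with 1 point per gene and a bar at the median of classes with 3 or more; dashed lines mark 1.5-fold. The 5 small HSPs all lie left of the lower line, and every other class has at least 1 gene between the lines.

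The small HSPs stood apart in direction. Their summed tags were 3559 in Dox+ and 1566 in Dox−, 2.22-fold lower (2.09 to 2.36), and their share of all member tags was 6.48% in Dox+ and 2.93% in Dox−. The median log2 ratio of the 5 compared genes was -0.86, with a range from -1.86 to -0.72. Hspb1 (HSP27, chromosome 5, 136363789 to 136365433 on NCBIM37), which binds unfolded proteins and actin, had 2083 tags in Dox+ and 772 in Dox−. That made it 2.63-fold lower (ratio 0.380, 0.349 to 0.412), and it alone held 58.5% of the small HSP tags in Dox+ (56.9 to 60.2) and 49.3% in Dox− (46.8 to 51.8). Without Hspb1 the class was still 1.81-fold lower (1.66 to 1.98), and without Hspb11 it was 2.24-fold lower (2.11 to 2.38). Hspb6 (HSP20, chromosome 7, 31337197 to 31340462), a small HSP of smooth and cardiac muscle, had 256 and 69 tags. Its log2 ratio of -1.86 was the lowest of any compared member (ratio 0.276, 0.208 to 0.361), and its interval overlaps that of Hspb1.

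Hspb8 (HSP22, chromosome 5, 116858500 to 116872873), which acts with Bag3 in the autophagy of damaged muscle proteins, had 915 tags in Dox+ and 536 in Dox−. The ratio of 0.600 (0.538 to 0.668) was closer to 1 than that of Hspb1, and the intervals lie apart. Hspb7 (chromosome 4, 140976694 to 140981226), a small HSP of heart and skeletal muscle, had 135 and 80 tags, a ratio of 0.607 (0.454 to 0.806). Hspb11 (chromosome 4, 106926198 to 106952543), the intraflagellar transport protein, had 147 and 79 tags, a ratio of 0.550 (0.413 to 0.728). Hspb2, the remaining member of the class, had 23 tags in Dox+ and 30 in Dox−, too few for the comparison, and its interval (0.750 to 2.41) held 1. Cryab (αB-crystallin), a small HSP of muscle and lens outside the symbol rule, had 178 and 101 tags, a ratio of 0.581. Cryab and Hspb2 are divergent genes whose starts lie 404 bases apart.

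Markers of muscle were lower as well. All 9 compared smooth muscle markers of 10 listed had negative log2 ratios, with a median of -0.57 and a range from -0.92 to -0.33, and 4 of the 9 were past 1.5-fold. Their summed level was 8137 TPM in Dox+ and 5782 in Dox−, 1.41-fold lower, with no marker at 0. Of the 12 listed markers of striated muscle 8 were in the table, and these summed to 656 TPM in Dox+ and 236 in Dox−, 2.78-fold lower. Most of these sums came from Acta1, with 3385 and 1241 tags (565 and 212 TPM). Tnni2 had 408 and 99 tags, whereas Mb had 0 and 4 and Tnnc2 had 21 and 0. Myh1, Myh2, Myh4 and Myh7 are not listed in the table. Lower markers were not limited to muscle. Of 10 compared stroma markers 4 were lower and 2 higher past 1.5-fold, with a median log2 ratio of -0.25. Among all compared genes 14.7% were lower and 15.2% higher. The summed level of the stroma markers went the other way from muscle, with 9807 TPM in Dox+ and 11731 in Dox−. Hand2, Hoxa11 and Hoxa10 had log2 ratios of -2.75, -1.68 and -1.52, and Hspb1 had -1.40. Col1a2 and Lum were the higher ones. Of 9 compared epithelium markers 2 were lower and 3 higher, with a median of 0.41. The part of muscle or stroma content in the ratios of Hspb1, Hspb6, Hspb7 and Hspb8 was not tested. In RNA of a whole uterus, fewer cells of a type and less RNA per cell cannot be told apart.

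**Figure D2:**
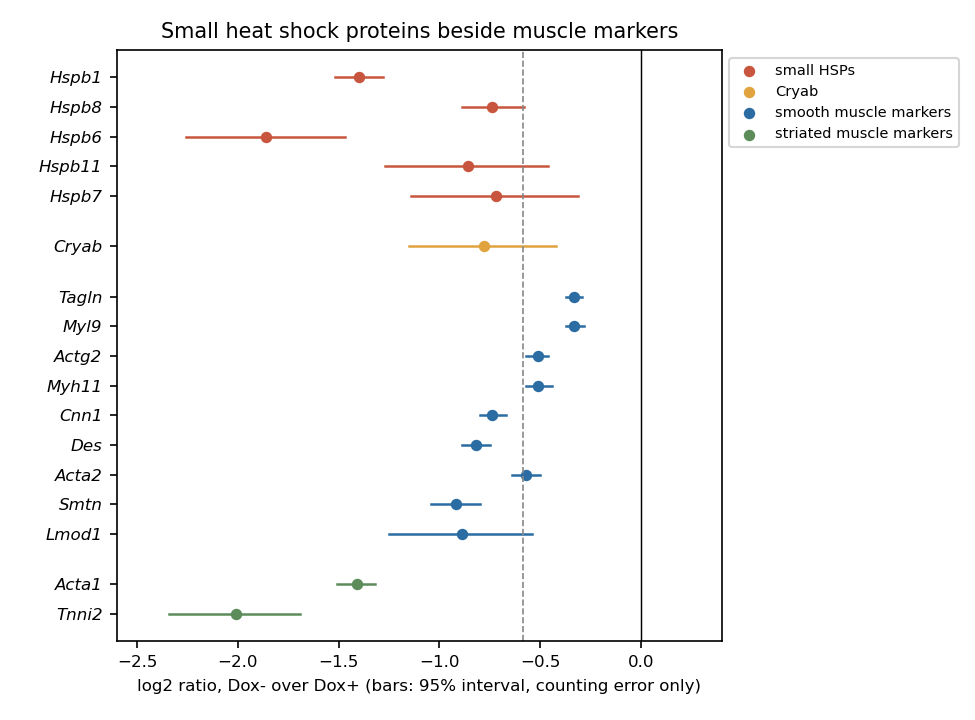
Log2 ratios (Dox− over Dox+) with 95% counting intervals for the 5 compared small HSPs, Cryab and the compared markers of smooth and striated muscle, ordered by tags within each group; the dashed line marks 1.5-fold lower. Hspb1 and Hspb6 lie below every smooth muscle marker, and Hspb7, Hspb8, Hspb11 and Cryab lie within the range of those markers.

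The HSP90 pair was split. Hsp90ab1 (HSP90β), the constitutive form, had the most tags of any member, 8989 in Dox+ and 7599 in Dox−, a ratio of 0.866 (0.840 to 0.893). It was also the member with the highest level in Dox+ when tags were divided by transcript length, 596 TPM per kilobase, and Hspe1 with 544 came next. In Dox− the order was the reverse, with 781 TPM per kilobase for Hspe1 and 516 for Hsp90ab1. Without that division Hsp90ab1 stood above Hspe1 in both libraries, at 1502 and 421 TPM in Dox+ and 1300 and 605 in Dox−. Tags counted per transcript would not call for a division by length, so the change of order rests on a scale that may not apply. Hsp90aa1 (HSP90α), the stress-inducible form, had 1763 and 2573 tags, a ratio of 1.49 (1.41 to 1.59). It was the member closest to the 1.5-fold limit from within, and Hsph1, with a log2 ratio of 0.70, the closest past it. With library sizes taken from the tags counted to genes, the log2 ratio of Hsp90aa1 was 0.62, past 1.5-fold, and 5 members in place of 4 were higher. The share of Hsp90aa1 in the tags of both genes was 16.4% in Dox+ (15.7 to 17.1) and 25.3% in Dox− (24.5 to 26.2). The sum of both genes was nearly level, with a ratio of 0.969 (0.943 to 0.996). Stip1, the adaptor that passes clients from HSP70 to HSP90, had 796 and 1038 tags, a ratio of 1.34 (1.22 to 1.47).

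Among HSP70 genes the general forms had more tags in Dox− and Hspa2 had fewer. Hspa8 (HSC70), the constitutive chaperone, had 622 and 834 tags, a ratio of 1.37 (1.24 to 1.53). Hspa1b, one of the stress-inducible pair, had 247 and 351 tags, and Hspa1a had 66 and 59. The coding sequences of this pair differ at 8 of 1926 aligned bases (99.6% identity), so that the assignment of tags to either is uncertain. Together the pair had 313 and 410 tags, a ratio of 1.34 (1.16 to 1.56). Hspa2 (chromosome 12, 77505163 to 77507921), best known for its role in male germ cells, had 340 tags in Dox+ and 127 in Dox−, 2.61-fold lower (ratio 0.383, 0.310 to 0.470). It held 20.7% of the tags of its class in Dox+ and 7.16% in Dox−.

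Hspa13 (chromosome 16, 75755435 to 75767066), an HSP70-like protein of the ER, had 108 and 172 tags, a ratio of 1.63 (1.27 to 2.09). Hspa12b, a divergent relative known from endothelium, had 146 and 99 tags, a ratio of 0.695 (0.533 to 0.903). The list of endothelial markers, 10 of 10 in the table and none at 0, summed to 258 TPM in Dox+ and 172 in Dox−, with 3 of 5 compared lower, and its part in the ratio of Hspa12b was not tested. The median log2 ratio of the 5 compared genes of the class was 0.46, but their mean was -0.04 because of Hspa2. By way of reference, the 4 ER genes that the rule left out were all higher in Dox−, with ratios from 1.65 for Dnajb11 to 2.48 for Dnajb9 and 3790 and 6472 tags for Hspa5 (BiP).

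Nucleotide exchange factors went in both directions. Hsph1 (HSP105, chromosome 5, 150416862 to 150438951), of the HSP110 family, had 780 tags in Dox+ and 1235 in Dox−, a ratio of 1.62 (1.48 to 1.78). Hspa4 (APG-2), its close relative, had 954 and 1178 tags, a ratio of 1.26 (1.16 to 1.38), and Hspa4l had 25 and 41. The HSP110 class summed to a ratio of 1.43 (1.34 to 1.52), the highest of the classes. Bag1 had 706 and 1003 tags, a ratio of 1.46 (1.32 to 1.60). Bag2 (chromosome 1, 33802329 to 33814639), which inhibits the ubiquitin ligase Stub1 (CHIP), had 468 and 228 tags, a ratio of 0.499 (0.424 to 0.586).

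Bag6, which helps to sort tail-anchored membrane proteins, had 825 and 599 tags, a ratio of 0.744 (0.668 to 0.827). Bag5 had 308 and 214 tags, a ratio of 0.712 (0.595 to 0.850), so that both stayed within 1.5-fold. Bag3, a partner of Hspb8 that is induced by stress, had 191 and 210 tags, and its interval held 1. Over the 5 compared BAG genes the median log2 ratio was -0.43.

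**Figure D3:**
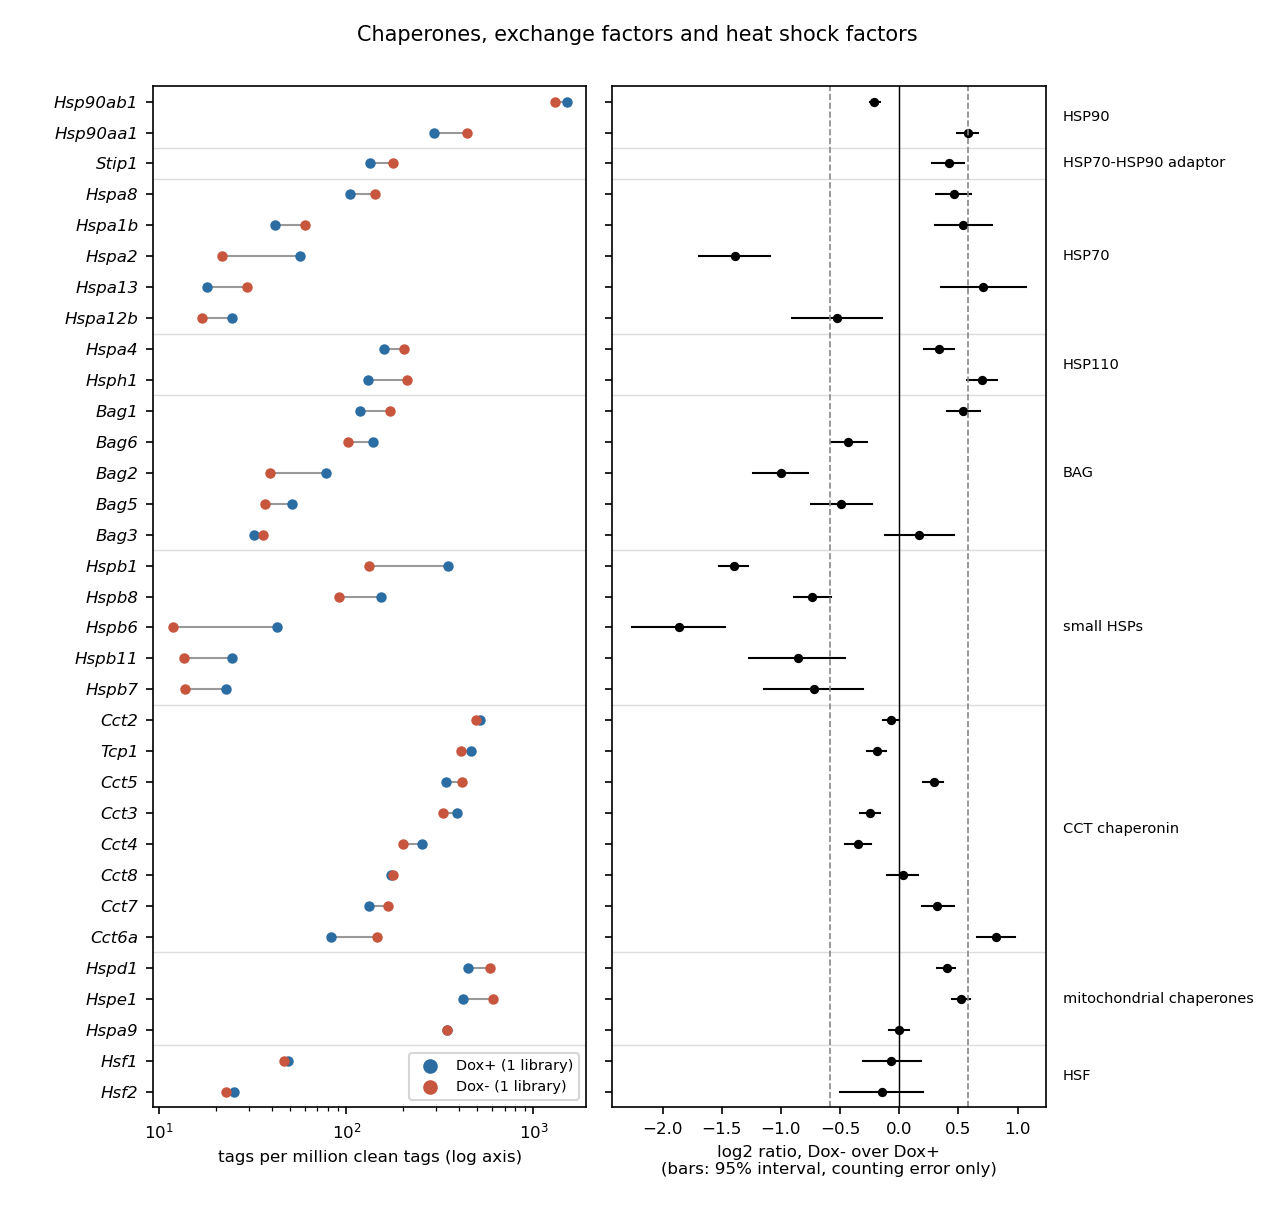
Tags per 1000000 clean tags (TPM, log axis) in the Dox+ and the Dox− library and the log2 ratio with its 95% counting interval, for the compared members other than J-domain proteins, by class; dashed lines mark 1.5-fold. Hsp90ab1 and Hsp90aa1 lie on opposite sides of 0, the 5 small HSPs lie left of the lower line, and most CCT subunits lie near 0.

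The subunits of the CCT chaperonin, a ring of 8 different proteins that folds actin and tubulin, were level as a class. All 8 genes had enough tags, and they summed to 14114 tags in Dox+ and 13654 in Dox−, a ratio of 0.991 (0.968 to 1.01). Their median log2 ratio was -0.02, with 4 above and 4 below 0. Cct2, with the most tags, had 3094 and 2878, Tcp1 (the α subunit) had 2782 and 2386, and Cct5 had 2039 and 2429. Cct3 had 2345 and 1930 tags, a ratio of 0.843, and Cct7 had 792 and 968, a ratio of 1.25. Those subunits stayed within 1.5-fold in both directions. Cct8 had 1041 and 1038 tags, a ratio of 1.02 (0.936 to 1.11). Cct4 was the lowest, with 1527 and 1173 tags and a ratio of 0.787 (0.729 to 0.850).

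Cct6a (chromosome 5, 130293315 to 130321696), the ζ subunit, was the exception. It had 494 tags in Dox+ and 852 in Dox−, a ratio of 1.77 (1.58 to 1.98), and its share of the CCT tags was 3.50% in Dox+ and 6.24% in Dox−. Although the subunits are present once in each ring, their tags were unequal. The highest subunit stood 6.27-fold above the lowest in Dox+ and 3.37-fold in Dox−, and per kilobase of transcript 5.10-fold and 3.72-fold. The values per kilobase have the limit stated for Hsp90ab1 and Hspe1.

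Tubulins, clients of CCT, were listed with prefoldin and the tubulin cofactors. Of 18 such genes 13 were compared, with 4 higher, 3 lower and a median log2 ratio of 0.42. Tuba1b had 7627 and 14623 tags and Tubb5 had 2954 and 4645, with ratios of 1.96 and 1.61, and Tuba1c had a ratio of 2.14. Pfdn5, a subunit of prefoldin, which hands clients to CCT, had 2108 and 1296 tags, a ratio of 0.630. Tbcb and Tbcc, tubulin cofactors, had ratios of 0.470 and 0.403, so that the list did not share a direction. The list of dividing cells, all 10 in the table, summed to 390 TPM in Dox+ and 587 in Dox−, with 6 of the 9 compared higher. Its part in the ratios of the tubulins was not tested.

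The mitochondrial chaperonin genes had more tags in Dox−. Hspd1 (HSP60, chromosome 1, 55134679 to 55145087), which forms the folding chamber of the matrix, had 2660 and 3419 tags, a ratio of 1.32 (1.25 to 1.39). Hspe1 (HSP10, chromosome 1, 55144976 to 55148151), the lid of that chamber, had 2519 and 3533 tags, a ratio of 1.44 (1.36 to 1.51). Both are below 1.5-fold. The pair shares the element printed above, and Hspe1 held 48.6% of the tags of the pair in Dox+ and 50.8% in Dox−. Hspa9 (mortalin), the HSP70 of the matrix, was level with 2077 and 2022 tags, a ratio of 0.997 (0.937 to 1.06).

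Of 13 listed partners in the mitochondrion 11 were compared, with 1 higher and 1 lower. Lonp1, a protease of the matrix, had 653 and 1260 tags, a ratio of 1.98, and Timm44, which ties Hspa9 to the import channel, had 554 and 318, a ratio of 0.588. Htra2, a protease of the intermembrane space, had 517 and 475 tags. The 10 compared members placed in mitochondrion or ER had a median log2 ratio of 0.23, and the 47 others one of -0.07. The others pool members of the cytosol and the nucleus with those that have no assigned site.

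J-domain proteins formed the class with the most genes, and few of them passed 1.5-fold. Of 37 genes 24 were compared, 1 was higher and 1 lower, where 15.2% and 14.7% of all compared genes were. The median log2 ratio was 0.09. Dnaja1, an abundant partner of HSC70, had 5147 tags in Dox+ and 3779 in Dox−, a ratio of 0.752 (0.721 to 0.784). Dnaja2, of the same class, went the other way with 716 and 918 tags, a ratio of 1.31 (1.19 to 1.45), and Dnaja3, a mitochondrial form, had 236 and 252 tags. Dnajb1 (HSP40), the heat-inducible partner of HSP70, had 316 and 300 tags, a ratio of 0.972 (0.827 to 1.14).

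Dnajb2, known from neurons, had 361 and 295 tags, a ratio of 0.837 (0.715 to 0.979). Dnajb6, which keeps proteins from forming aggregates, had 337 and 311 tags and an interval that held 1, as did Dnajb4 with 300 and 312. Dnajb5 (chromosome 4, 42962686 to 42972297) had 146 and 68 tags, 2.10-fold lower, and with 214 tags in all it only just reached the comparison. Its interval (ratio 0.477, 0.352 to 0.640) is wide for that reason.

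**Figure D4:**
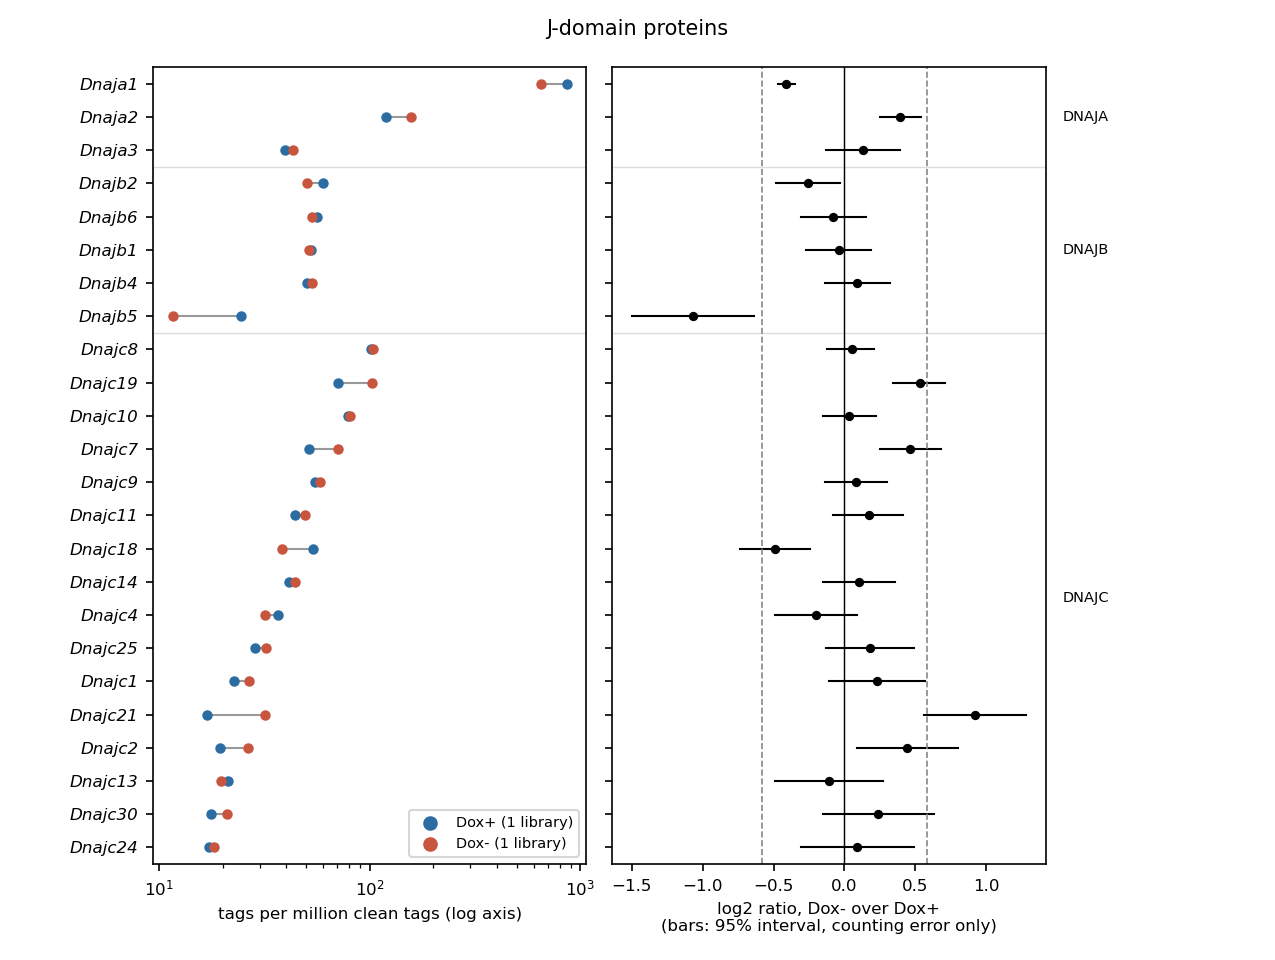
Tags per 1000000 clean tags (TPM, log axis) in both libraries and the log2 ratio with its 95% counting interval for the 24 compared J-domain genes; dashed lines mark 1.5-fold. Dnajb5 lies left of the lower line, Dnajc21 right of the upper line and all others between them.

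Among the 16 compared DNAJC genes 13 had a log2 ratio above 0 and 3 below, but most of the 13 had intervals that held 1. The median of the class was 0.13, and that of all compared genes, 0.03, was above 0 as well. Dnajc21 (chromosome 15, 10376511 to 10400271), a factor of ribosome maturation, had 101 and 186 tags, a ratio of 1.89 (1.47 to 2.43). Dnajc19 (TIM14), of the mitochondrial import motor, had 424 and 596 tags, a ratio of 1.44 (1.27 to 1.63). Dnajc7, which binds both HSP70 and HSP90, had 307 and 413 tags, and Dnajc2, a chaperone at the ribosome, had 116 and 154. Dnajc8, known from the spliceosome, had 602 and 607 tags, and Dnajc10, a reductase of the ER, had 472 in each. Dnajc18 was the lowest of the class with 321 and 223 tags, a ratio of 0.712 (0.597 to 0.847). The other 9, Dnajc1, Dnajc4, Dnajc9, Dnajc11, Dnajc13, Dnajc14, Dnajc24, Dnajc25 and Dnajc30, had ratios from 0.870 to 1.18 and intervals that all held 1.

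The genes of the HSF class summed to 74.8 TPM in Dox+ and 70.2 in Dox−. Hsf1 had 291 tags in Dox+ and 271 in Dox−, a ratio of 0.954 (0.805 to 1.13). Hsf2 had 151 and 133 tags, a ratio of 0.902 (0.709 to 1.15). Hsf4 had 6 and 3 tags. The counts bear on mRNA alone, and HSF1 is known to be controlled mostly as a protein. Hsbp1, a small protein that binds HSF1, had 1344 and 771 tags, a ratio of 0.588. Other stress genes listed with it did not share a direction, as Sqstm1 and Ddit3 had ratios of 1.95 and 2.45, Txnip had 0.460, and Serpinh1, the collagen chaperone, with 16068 and 13980 tags, stayed within 1.5-fold.

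Co-chaperones of HSP90 were level in sum, with 10169 and 9968 tags over 20 genes and an interval of the ratio from 0.977 to 1.03. Of 17 compared genes 1 was higher, 2 were lower and the median log2 ratio was -0.04. Ptges3 (p23) had 2193 and 1875 tags and Fkbp4 (FKBP52), which serves the progesterone receptor, had 1684 and 1406. Ppid (cyclophilin 40) had 673 and 1120 tags, a ratio of 1.70, and Tomm34 had a ratio of 0.608. Unc45b, a myosin chaperone of striated muscle, had 72 and 17 tags, too few for the comparison. Fkbp5 (FKBP51), a target of progesterone and glucocorticoid receptors, had 190 and 45 tags, a ratio of 0.243. Among co-chaperones of HSP70, 7 of 9 listed genes were compared with 0 higher and 1 lower, Hscb, with a ratio of 0.480. Tomm70a, Stub1 and St13 had the most tags of the list and ratios from 1.13 to 1.16.

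The other 21 members had fewer than 200 tags in all. The highest of these were Hspa14 with 79 and 104 tags, Dnajc5 with 56 and 84, and Dnajb14 with 49 and 90, and the intervals of Dnajc5 (1.08 to 2.19) and Dnajb14 (1.31 to 2.72) lay above 1. Dnajc27, with 35 and 16 tags, had an interval below 1 (0.242 to 0.869). Dnajc6 (auxilin), which uncoats clathrin vesicles, had 7 tags in Dox+ and none in Dox−. With the count of 0 set to 3 tags, equal to 0.513 TPM, it was 2.28-fold lower, and its counting interval began at 1.41-fold lower. Dnajb13 had 2 tags and 0, and Hsf2bp had 0 and 3. The remaining ones, Bag4, Dnaja4, Dnajb3, Dnajb12, Dnajc12, Dnajc15, Dnajc16, Dnajc17, Dnajc28, Hspa12a, Hspa1a, Hspa4l, Hspb2 and Hsf4, had intervals that held 1.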

How the data were processed

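Total RNA of 3 pooled uteri per group was profiled by Illumina tag sequencing (DGE). The authors removed adaptor-only, low quality and single-copy tags, aligned clean tags to mm9 mRNA sequences and annotated the unambiguous ones. The deposited counts are tags per gene without normalization. The labels describe fragmented mRNA instead, which was not resolved, and CASAVA is named in the submitters' processing notes. The deposited TPM values scale each count to 1000000 clean tags, ignore transcript length and read 0.01 where the count is 0. Library sizes were recovered as the only whole numbers for which all 14050 (Dox+) and 13948 (Dox−) TPM values above 0.01 match the scaled counts after rounding (tolerance 0.005). The counted tags, 4437506 and 4218459, were 74.1% and 72.2% of them. The study reports larger shares of unambiguously mapped tags, and the difference was not resolved. The deposited ratios, log2 ratios, P-values and FDR values of the authors' own comparison were not used. It is not stated whether antisense tags enter the counts.

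Ratios, exact Clopper-Pearson 95% intervals and counts past 1.5-fold at a combined count of at least 200 were computed. The study names that count and fold in its results, and in its methods an absolute log2 ratio above 0.5, which was an alternative here. At 1.5-fold 994 genes were higher and 961 lower here, fewer than the study reports. The shares past the log2 limit, 18.8% higher and 17.8% lower of 6547 genes, come closer to its counts. Counts of 3 or fewer were set to 3 in folds. With 1 library per group no test was run. Members, gene lists and classes were chosen with earlier results of these data known. The text names each member past 1.5-fold, those with the most tags in each class, those at 0 and next to the limits, and of other lists the genes with the most tags or past 2-fold. Other genes were chosen after their values were seen. Gene positions and the longest transcript lengths are from GENCODE on NCBIM37 (mm9), which held 77 of the 78 symbols as a unique gene. RefSeq promoters of GRCm38.p6 matched 62. The intervals were tried on simulated counts that held counting error only, with no variation between animals or libraries. Alternatives were other library sizes (TMM of edgeR 4.0.16, median-ratio, counted tags), count filters, folds and sets. Python 3.11.15, numpy 2.4.6, pandas 2.3.3, scipy 1.17.1, matplotlib 3.10.9 and R 4.3.3 were used.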

Additional observations from a re-analysis of the deposited data

How the results depend on the processing

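The 12 calls rest on 1 library per group, and no setting can replace the missing replicates. No paired analysis was possible because each group has 1 sample. Scaling by counted tags, by TMM or by median ratios moved the median log2 ratio of all compared genes to 0.07, 0.01 and 0.00. By these scalings the summed log2 ratio of all members was 0.03, -0.03 and -0.04, and that of CCT was 0.03 by counted tags and -0.05 by median ratios. The calls past 1.5-fold were 7 higher and 10 lower with a combined count of at least 20 (19.7% and 18.7% of all genes), 7 and 12 with no filter (20.9% and 20.6%), and 2 and 3 from 500 tags (13.6% and 13.8%). With an absolute log2 ratio above 0.5, which 18.8% of all genes passed as higher and 17.8% as lower, there were 9 higher, with Hsp90aa1, Hspe1, Hspa1b, Bag1 and Dnajc19 added, and 9 lower, with Hspa12b added, and with a fold of 2 there were 0 higher and 5 lower. The median of HSP70 was 0.15 from 20 tags or without a filter, -0.03 without Hspa13 and -0.04 as a mean. That of BAG was -0.13 from 100 or 20 tags and without a filter, and that of the mitochondrial chaperones 0.31 as a mean. Without members of mitochondrion or ER the summed log2 ratio of all members was -0.08. Without Hspb1, left out after seeing the data, it was 0.03, and that of the small HSPs was -0.86. The small HSPs were lower in all settings run, but from 500 tags only Hspb1 and Hspb8 of the class were left. Of the 285 alternative values of single members all lay within the counting interval. A count of 0 allows up to 0.501 TPM in Dox+.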

Other observations

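Some members lie head to head with another gene. On NCBIM37, 23 of the 77 placed members (29.9%), beside 14.3% of the 14056 placed genes of the table, had a protein-coding gene on the opposite strand whose start lay within 1000 bases in a divergent arrangement. In 11 such pairs both genes were compared, with Hspd1 and Hspe1 as 1 pair, and the log2 ratios had the same sign in 7, beside 130 of 258 such pairs over all genes (50.4%). Cct6a, the CCT subunit past 1.5-fold, lies 186 bases from Psph, a gene of serine synthesis, which had 86 tags in Dox+ and 202 in Dox−, a log2 ratio of 1.27. Bag1 lies 126 bases from Chmp5, of the endosomal sorting complex, with 507 and 700 tags and a log2 ratio of 0.50, beside 0.54 for Bag1. Dnajc2 is 32 bases from Psmc2, a proteasome ATPase, with 512 and 888 tags (log2 ratio 0.83). Bag5 is 4 bases from 2810002N01Rik, and both were lower, by log2 ratios of -0.49 and -1.66. Hspb11 and Lrrc42, 61 bases apart, had log2 ratios of -0.86 and -0.38.

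The 4 pairs of unlike sign include Tcp1, with a log2 ratio of -0.19, beside Mrpl18, of the mitochondrial ribosome, with 0.48, and Dnajc7, with 0.46, beside Nkiras2, with -0.47. Dnajc30 (0.24) and Wbscr22 (-0.44) also differ, and Hsf1 (-0.07) and Bop1 (0.03) are both near 0. Tcp1, Dnajc7 and Dnajc30 overlap their neighbours at the starts, by 644, 924 and 753 bases, while Hsf1 and Bop1 start 166 bases apart. Of the compared pairs of like sign, only Hspd1 and Hspe1 overlap, by 111 bases. Among pairs with too few tags of the member, Bag4 had 60 and 74 tags while Lsm1, 382 bases away, had 601 and 279. These are values of 2 libraries, and no test was made.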
